A study of Mus musculus with 24 samples.

Results

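Brown adipose tissue (BAT) RNA of 24 mice was counted for 12615 genes, and 4 of them, Ivns1abp, Irak3, Myo5a and Ighm, are described here. They were picked on the interaction of genotype and temperature, that is on how far the genotype difference at 8°C departed from the genotype difference at 30°C. They hold places 4, 3, 9 and 2 in the order of the interaction p over 12485 tested genes, so they are not the first 4 of that order. Since that contrast and its parts chose them, their values in it are given as a description, without a test. Only the average genotype difference and the average temperature difference, which the choice did not use, are tested.

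All mice were C57BL6/N, carried floxed alleles of both TBLR1 (gene Tbl1xr1) and TBL1 (gene Tbl1x), and were injected with tamoxifen. BATdKO mice also carried Ucp1CreERT2, a Cre recombinase that tamoxifen switches on and that the Ucp1 promoter drives in brown adipocytes, and Cre- mice lacked it. TBLR1 and TBL1 are exchange factors of a nuclear corepressor complex. Each genotype had 6 mice at 30°C and 6 at 8°C, giving 4 groups. All were raised at 22°C. The warm groups spent 4 days at 30°C, a temperature near thermoneutrality for mice. The cold groups spent 1 day each at 18, 16 and 12°C and, by the labels, 6 days at 8°C, for which the methods give a shorter stay. The temperature protocol began 3 weeks after the last tamoxifen. The labels give females and the paper's legend gives males, and the number 5 for the age at tamoxifen is in years in the labels and in weeks in the methods. Within a group, m1 to m6 name the mice and pair none of them with mice of another group. The identifiers of the 2 temperature groups run in separate blocks, so any effect of such blocks and the temperature cannot be told apart.

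The 4 genes come from unrelated families. Ivns1abp encodes a BTB-kelch protein, a family in which many members hold substrates for the ubiquitin ligase scaffold CUL3, and is named for its binding to an influenza virus protein. Irak3, also called IRAK-M, encodes an inactive kinase of the IRAK family that restrains signalling from Toll-like and interleukin-1 receptors, best known in macrophages. Myo5a encodes myosin Va, an actin motor that carries vesicles and pigment granules, and is known from neurons and melanocytes. Ighm encodes the constant region of the immunoglobulin M heavy chain and is a gene of B lymphocytes and plasma cells. In a whole tissue such as BAT, fewer cells of a type and less RNA per cell cannot be told apart.

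The total count per library ran from 699703 (Cre- 30°C, m4) to 11527643, so a single library is much shallower than the rest. Both deleted genes were higher, not lower, in libraries labelled BATdKO. At 8°C the libraries labelled BATdKO had 39.8 ± 4.01 CPM of Tbl1xr1 (SD, n = 6), where CPM is the count scaled to a fixed normalized library size, and the Cre- libraries had 20.9 ± 2.24 CPM (SD, n = 6). A 3′ tag lies near the end of a transcript and the floxed exons are not given in the sources used here, so this does not check the deletion. At 30°C both libraries called m6 went against the rest of their groups. For Tbl1xr1 the library labelled Cre- m6 had 38.6 CPM, where the others had at most 24.6 CPM, and the library labelled BATdKO m6 had 17.0 CPM. Results are therefore also given without these 2 libraries. As for the tissue, all 10 brown adipocyte markers were present, with a summed level of 658 to 3620 CPM, and Ucp1 rose from a mean of 177 CPM to 1539 CPM with cold in Cre- mice. A list of 6 hepatocyte markers reached a summed 25375 to 37082 CPM over all 24 libraries, with Alb at a mean of 9303 to 11343 CPM in the 4 groups, so genes typical of liver stood well above brown fat markers throughout.

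The genes lie on 4 chromosomes of GRCm38. Ivns1abp spans 151344477 to 151364422 on the plus strand of chromosome 1, Irak3 120141648 to 120202130 on the minus strand of chromosome 10, Myo5a 75071015 to 75223688 on the plus strand of chromosome 9, and Ighm 113418558 to 113422730 on the minus strand of chromosome 12. Promoter windows from RefSeq (GRCm38.p6, 250 bases before to 50 bases from the annotated start) were matched for Ivns1abp, Irak3 and Myo5a, and none was matched for Ighm. Ivns1abp and Irak3 moved in opposite directions with cold in Cre- mice, and the stretch at 1 annotated start of each is shown because both hold the same pair of short motifs. Each runs from 10 bases before that RefSeq start over the 20 bases from it. In a GENCODE transcript of each gene, this start lies 9 bases (Ivns1abp) and 62 bases (Irak3) inside the transcript. Capitals mark the E-box CACGTG and the cAMP-response half-site TGACG, read in Irak3 from the other strand as CGTCA, where it overlaps the E-box.
Ivns1abp, chr1:151344476-151344505, plus strand: cgttggcggcagcgCACGTGgTGACGtgcg
Irak3, chr10:120201578-120201607, minus strand: agcggctccctaCGTCACGTGgggcccgcc
Over both strands, 7.15% of all 32851 windows hold CACGTG, 20.8% hold the half-site on either strand, and 2.11% hold both motifs. The other window of Ivns1abp overlaps this stretch, and neither the other window of Irak3 nor the window of Myo5a holds either motif. The motifs were chosen after the windows had been read, and a match describes letters and not a bound site.

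Ivns1abp was low in a single group, the cold Cre- mice. At 30°C it ranged from 56.5 to 93.7 CPM (median 73.3) in Cre- mice and from 72.2 to 85.9 CPM (median 77.0) in BATdKO mice. At 8°C it ranged from 39.7 to 50.2 CPM (median 45.1) in Cre- mice and from 73.6 to 90.2 CPM (median 76.6) in BATdKO mice. All 6 cold Cre- mice lay below all 18 other mice, the lowest of which had 56.5 CPM, and the other 3 groups overlapped one another. The group means were 44.6 ± 3.56 CPM in cold Cre- mice, against 71.7 ± 13.7 CPM in warm Cre-, 77.8 ± 5.34 CPM in warm BATdKO and 78.9 ± 6.61 CPM in cold BATdKO mice (SD, n = 6 each). The mean was thus 1.61-fold lower in the cold than in the warm among Cre- mice and 1.02-fold the warm level among BATdKO mice. The highest warm Cre- value, 93.7 CPM, belongs to m6. Without it that group had 67.3 ± 9.51 CPM (SD, n = 5). Ivns1abp shares 279 exon bases with the antisense gene Gm10138. Whether counting used strand is not given in the sources used here, but Gm10138 had only 2.86 to 4.07 CPM as group means.

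Irak3 was highest in the cold Cre- mice and rests on few reads, with 1 to 47 per library. It ranged from 1.37 to 2.35 CPM (median 2.06) in warm Cre- mice and from 2.12 to 3.63 CPM (median 2.76) in warm BATdKO mice. The range was 3.26 to 5.82 CPM (median 4.54) in cold Cre- mice and 1.54 to 3.03 CPM (median 1.95) in cold BATdKO mice. Cold Cre- mice did not overlap warm Cre- or cold BATdKO mice, and 4 of the 6 lay above all 18 others. The mean of 4.43 ± 0.992 CPM (SD, n = 6) in cold Cre- mice was 2.20-fold that of warm Cre- mice (2.02 ± 0.357 CPM) and 2.15-fold that of cold BATdKO mice (2.06 ± 0.518 CPM). In the 2 BATdKO groups the order was turned, with 2.77 ± 0.541 CPM in the warm and less in the cold, although these ranges overlapped. The lowest value, 1.37 CPM in warm Cre- m4, rests on a single read of the shallowest library. Irak3 shares 192 exon bases with Tmbim4 on the other strand, whose group means were 34.5 to 39.4 CPM and whose interaction value was 0.03 (log2).

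By group means, though not by medians, Myo5a had the same order of groups as Irak3, and its values spread widely between mice. Its range was 7.16 to 22.5 CPM (median 15.8) in warm Cre- mice and 19.0 to 35.2 CPM (median 24.6) in warm BATdKO mice. In the cold it ranged from 30.7 to 60.9 CPM (median 47.2) in Cre- mice and from 8.41 to 29.6 CPM (median 25.3) in BATdKO mice. All 6 cold Cre- mice stood above every warm Cre- and every cold BATdKO mouse, and 4 of them above all 18 others, since a warm BATdKO mouse reached 35.2 CPM. The mean of cold Cre- mice, 45.2 ± 11.52 CPM (SD, n = 6), was 2.85-fold that of warm Cre- mice (15.9 ± 5.76 CPM) and 1.99-fold that of cold BATdKO mice (22.7 ± 8.09 CPM). Warm BATdKO mice, at 26.1 ± 5.78 CPM, lay between and overlapped the cold BATdKO mice. The coefficient of variation within groups was 22.2% to 36.3%, where that of Ivns1abp was 6.87% to 19.1%. No exon of Myo5a is shared with another annotated gene.

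Ighm stood out in the cold BATdKO mice. It ranged from 5.47 to 10.9 CPM (median 8.63) in warm Cre- mice, from 7.66 to 13.9 CPM (median 9.54) in warm BATdKO mice and from 6.82 to 8.52 CPM (median 6.90) in cold Cre- mice. In cold BATdKO mice it ranged from 13.1 to 27.4 CPM (median 20.0), and 5 of the 6 lay above all 18 other mice. The exception was m6 of that group, at 13.1 CPM, which a warm BATdKO mouse at 13.9 CPM passed. Its mean was 20.2 ± 4.64 CPM (SD, n = 6), which is 2.78-fold the mean of cold Cre- mice (7.24 ± 0.674 CPM) and 2.02-fold that of warm BATdKO mice (9.98 ± 2.17 CPM). Warm Cre- mice had 8.48 ± 2.26 CPM, and the 3 lower groups overlapped. Ighm has no exon overlap with another annotated gene.

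**Figure D1:**
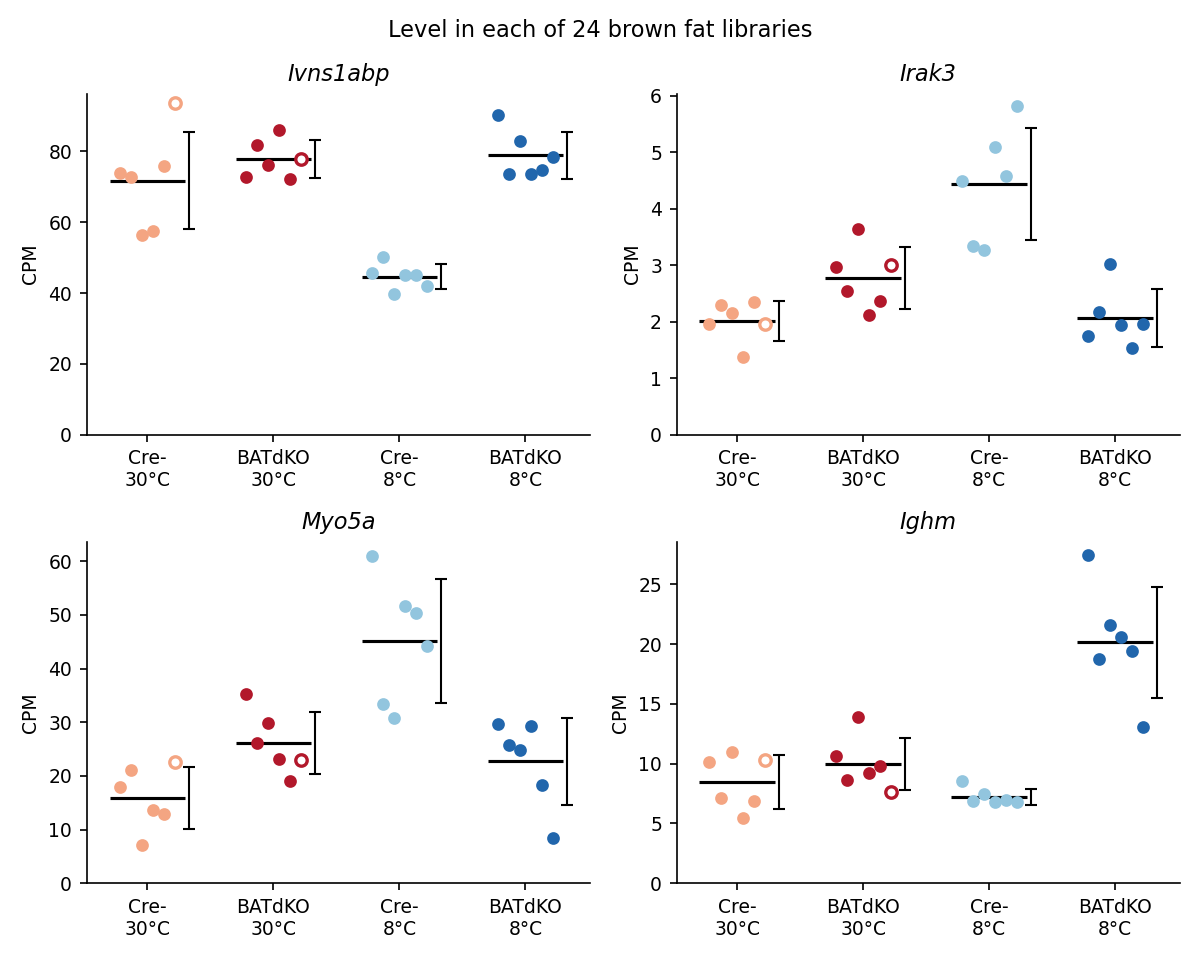
Level of Ivns1abp, Irak3, Myo5a and Ighm (CPM, each axis from 0) in the 24 libraries by group, where points are mice m1 to m6 from left to right, bars are group means and whiskers 1 SD. Open points are both m6 libraries at 30°C. Cold Cre- mice lie lowest for Ivns1abp (39.7 to 50.2 CPM) and highest for Irak3 and Myo5a, and cold BATdKO mice highest for Ighm.

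The differences behind these patterns, on the log2 scale of the edgeR fit, fall into 2 shapes. For Ivns1abp the cold difference was -0.71 (SE 0.09) in Cre- mice and 0.02 in BATdKO mice, and the genotype difference, BATdKO minus Cre-, was 0.10 at 30°C and 0.82 at 8°C. For Irak3 the cold difference was 1.08 in Cre- and -0.37 in BATdKO mice, with genotype differences of 0.35 and -1.10. Those of Myo5a were 1.47 and -0.21 for cold and 0.67 and -1.01 for genotype. These genes had their cold difference mainly in Cre- mice. For Ighm the cold difference was instead -0.31 in Cre- and 1.01 in BATdKO mice, with genotype differences of 0.14 and 1.46. The cold and the genotype comparisons share groups, so the 4 values of a gene are not separate measurements.

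**Figure D2:**
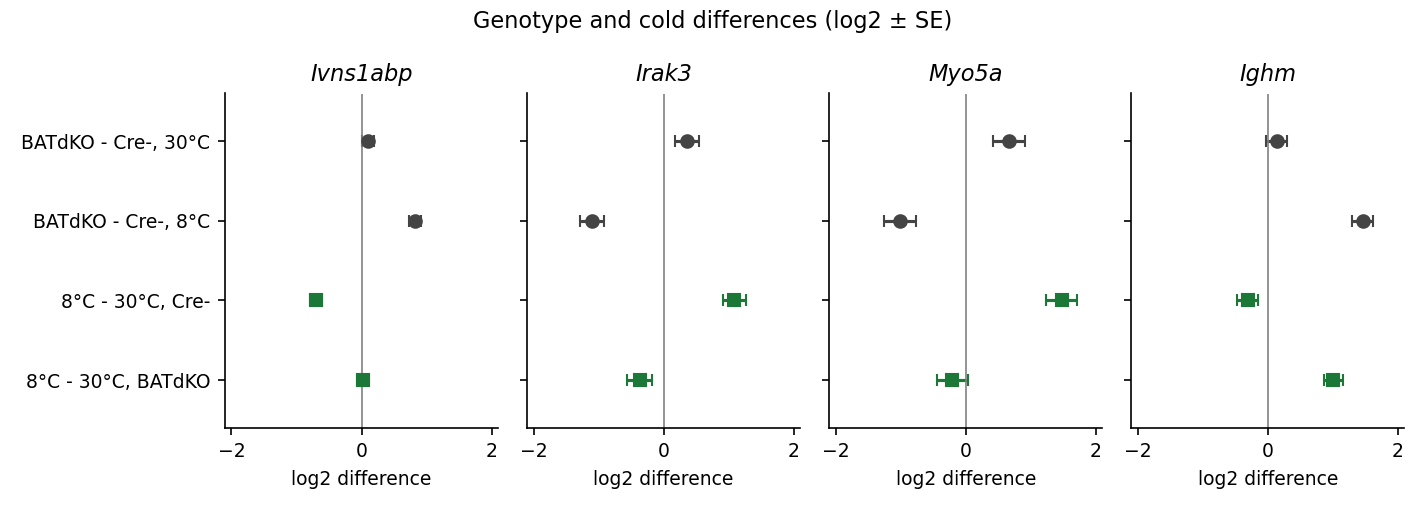
Genotype differences at each temperature (circles) and cold differences in each genotype (squares) for the 4 genes, in log2 units with 1 standard error. Ivns1abp differs between genotypes by 0.82 at 8°C and 0.10 at 30°C, Irak3 and Myo5a change sign between temperatures, and Ighm differs by 1.46 at 8°C.

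The interaction values that chose the genes, the genotype difference at 8°C minus that at 30°C, were 1.32 for Ighm (SE 0.22), -1.45 for Irak3 (SE 0.26), 0.72 for Ivns1abp (SE 0.13) and -1.68 for Myo5a (SE 0.34). Over all genes, 12 of 12485 (0.0961%) passed an adjusted p of 0.1 in this contrast, and as the rule used it nothing is read from that. Cbr1, a carbonyl reductase, stood first with 0.89. Gngt2, Dcaf12, B930025P03Rik and Gm47595 stood between Ivns1abp and Myo5a, with 1.23, 0.66, 2.02 and -1.63. Dgat2, an enzyme of triglyceride synthesis, followed Myo5a with 0.81, and Gm5898 followed that with -0.60. Without both m6 libraries at 30°C the interaction values were 1.20 for Ighm, -1.40 for Irak3, 0.63 for Ivns1abp and -1.84 for Myo5a, and 44 genes passed. In the single comparisons 227 genes (1.82%) passed for genotype at 8°C, 1143 (9.15%) for cold in Cre- mice and 883 (7.07%) for cold in BATdKO mice. For genotype at 30°C the edgeR test passed 0 genes (0%), with 1303 at an unadjusted p under 0.05. DESeq2 passed 90 there, and edgeR without both m6 libraries 500.

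**Figure D3:**
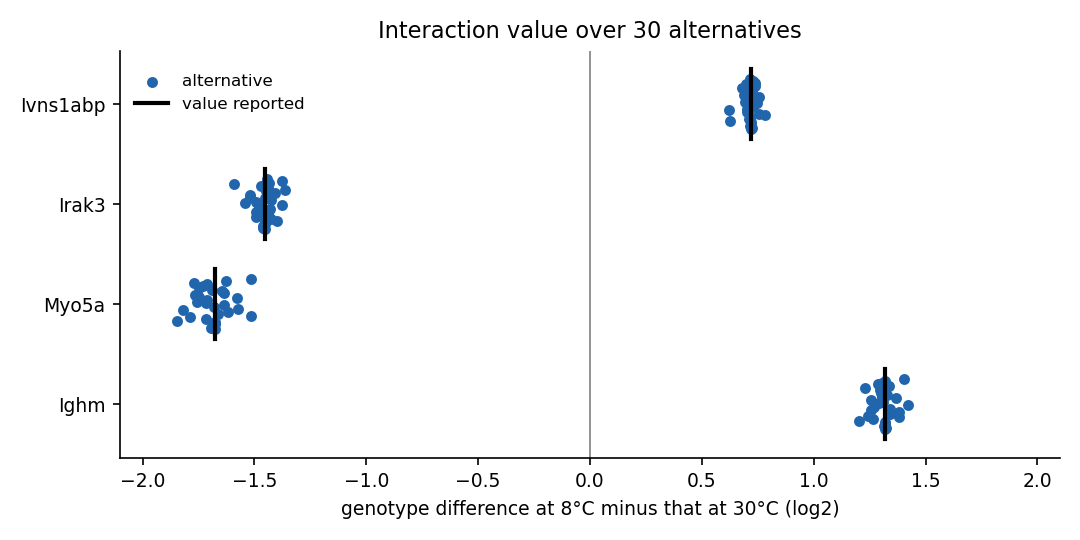
Genotype difference at 8°C minus that at 30°C (log2) for each gene, as reported (bar) and under 30 alternatives (points: another tool, normalization or filter, or libraries left out). The points run from 0.62 to 0.78 for Ivns1abp, -1.59 to -1.36 for Irak3, -1.84 to -1.51 for Myo5a and 1.20 to 1.42 for Ighm, and as this contrast chose the genes they are a description.

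Averaged over both temperatures, Ivns1abp and Ighm were higher in BATdKO than in Cre- mice. The average genotype difference was 0.46 (log2, SE 0.07, adjusted p = 0.000443 in edgeR's quasi-likelihood fit) for Ivns1abp and 0.80 (SE 0.11, adjusted p = 0.000443 in the same edgeR fit) for Ighm. Both averages are made mostly of the difference at 8°C given above. The values for Irak3 and Myo5a, -0.37 and -0.17, did not pass (adjusted p = 0.195 and 0.828 from edgeR). Thus 2 of the 4 genes passed, where 358 of all tested genes (2.87%) did. Without both m6 libraries the differences were 0.50 for Ivns1abp and 0.85 for Ighm. The choice of the genes fixed neither the sign nor the size of this average, but it favours genes with a small spread between mice, so these p-values may be too small.

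All 4 genes passed for the average temperature difference, as did 1945 of all tested genes (15.6%). Averaged over genotypes, Ivns1abp fell by 0.35 in the cold on the log2 scale (SE 0.07, adjusted p = 0.00062 from edgeR). Myo5a rose by 0.63 (SE 0.17, adjusted p = 0.0145 from edgeR) and Ighm by 0.35 (SE 0.11, adjusted p = 0.0412 from edgeR). Irak3 rose by 0.36 (SE 0.13, adjusted p = 0.0858 from edgeR), but without both m6 libraries the adjusted p was 0.119, and the call was lost in 18 of 30 alternatives, including DESeq2 with 0.169. For Ivns1abp, Irak3 and Myo5a this average takes its sign from the cold difference in Cre- mice given above. For Ighm it takes its sign from that in BATdKO mice. As with the genotype average, the choice favours genes with a small spread between mice, so these p-values may be too small. Since nothing says whether mice shared litters or cages, these p-values measure the spread between the sampled mice.

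The other IRAK kinases and the adaptors Myd88, Tollip and Traf6 had interaction values of -0.30 to 0.19, where that of Irak3 was -1.45. Irak1, the kinase that Irak3 holds back, had 42.4 ± 2.28 CPM in cold Cre- mice and 36.5 ± 2.30 CPM in warm Cre- mice, against 38.0 ± 1.21 and 37.0 ± 1.96 CPM in cold and warm BATdKO mice (SD, n = 6 each). Its cold difference in Cre- mice was 0.20 (adjusted p = 0.0466 from edgeR) and its interaction value -0.16 (adjusted p = 0.648 from edgeR). Irak2, a signalling kinase of the same family, rose with cold on average over genotypes by 0.53 (adjusted p = 0.0276 from edgeR), where Irak3 had 0.36, and its interaction value was 0.19. Irak4, which starts the kinase cascade, and the 3 adaptors passed no contrast in the edgeR fit. Of 58 listed genes of Toll-like and interleukin-1 receptor signalling 38 were tested. None passed for the interaction in edgeR or DESeq2, and 2 did at an unadjusted p under 0.05 with either tool. Their median interaction value was -0.03, where that of all genes was 0.0084. For the average temperature difference 6 of the 38 passed, 3 higher (Irak1, Irak2 and Tab2) and 3 lower in the cold. The lower ones were Relb (-0.81) and Nfkb2 (-0.38), subunits of the alternative NF-kappa-B pathway, and Peli3 (-0.81), a ubiquitin ligase that acts on IRAK proteins. That share of 15.8% stands beside 15.6% of all genes. Without both m6 libraries 7 passed there, as did 2116 of all tested genes. Irak2, Relb, Peli3 and Nfkb2 were still called, Irak1 and Tab2 were not, and Peli2, Nfkbia and Chuk were added. DESeq2 did not call Irak1 either. For cold in Cre- mice 2 passed (5.26%, beside 9.15% of all genes), Irak1 higher and Peli3 lower. Without both m6 libraries 6 passed, these 2 among them, as did 1651 of all tested genes.

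Among motors, Myo5b, a relative of Myo5a that acts in membrane recycling, had group means of 7.73 ± 2.59 CPM in warm Cre- and 10.9 ± 2.30 CPM in cold Cre- mice, and 7.41 ± 2.38 and 7.39 ± 1.74 CPM in warm and cold BATdKO mice (SD, n = 6 each). Its interaction value of -0.36 did not pass (adjusted p = 0.791 from edgeR). Myo5c, the third class V myosin, had an interaction value of -0.62 (adjusted p = 0.688 from edgeR) and its lowest mean, 5.23 CPM, in cold BATdKO mice. Of 32 listed genes of class V myosin transport 24 were tested, and none passed for the interaction in edgeR or DESeq2, with 1 at an unadjusted p under 0.05 in each. Their median interaction value was -0.03, against 0.0084 over all genes. Spire1, an actin nucleator that works with class V myosins on vesicles, had means of 5.59 and 9.83 CPM in warm and cold Cre- mice and 4.10 and 3.89 CPM in warm and cold BATdKO mice. It was lower in BATdKO than in Cre- mice at 8°C by a log2 difference of -1.36 (adjusted p = 0.00815 from edgeR) and on average by -0.84 (adjusted p = 0.0258 from edgeR). Spire1 was the only one of the 24 to pass in either (4.17%), beside 1.82% of all genes at 8°C and 2.87% on average. Without both m6 libraries Myo5b passed on average as well, where 674 of all tested genes did. For the average temperature difference Dynll2 (0.16), a light chain of myosin Va, was higher in the cold, and Rab11b (-0.20) and Vamp2 (-0.38), of the recycling and fusion machinery, were lower. Mlph and Rab10, a linker and a Rab protein that recruit class V myosins, passed no contrast, and Rab27a was not analysed here. Of 22 other unconventional myosins 11 were tested. None passed for the interaction in edgeR or DESeq2, with 1 and 0 at an unadjusted p under 0.05, and their median was 0.11. Myo9a alone passed for average temperature (-0.25), which is 9.09% of the 11 beside 15.6% of all genes.

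Of 42 listed BTB-kelch proteins, CUL3 and its partner RBX1, 28 were tested. None passed for the interaction in edgeR or DESeq2, with 3 and 2 at an unadjusted p under 0.05, and the median was -0.06. Keap1, the kelch protein that holds NRF2, varied between 35.4 and 39.2 CPM as group means and Klhl24 between 31.3 and 34.5 CPM, and neither passed a contrast. Cul3 rose with cold in Cre- mice by 0.35 (adjusted p = 0.0408 from edgeR), from 31.8 to 39.7 CPM, and by 0.20 on average. For cold in Cre- mice 2 of 28 passed, Cul3 higher and Kbtbd3 lower, or 7.14% beside 9.15% of all genes. Kbtbd3 (-0.43), Klhl13 (-0.57) and Klhl42 (-0.63) were lower in the cold on average, so 4 of 28 (14.3%) passed there, beside 15.6% of all genes. Without both m6 libraries 6 passed, all lower, as did 2116 of all tested genes in either direction, and Cul3 was not among the 6. Klhl31 and Klhl41, kelch proteins of skeletal muscle, were lower on average in BATdKO mice by log2 differences of -2.75 and -2.01. They were 2 of 28 to pass there (7.14%, smallest adjusted p = 0.0443 from edgeR), beside 2.87% of all genes. Of 11 skeletal muscle markers tested, 9 also passed as lower there (81.8%). The sum of these markers varied widely between mice. It ran from 4.10 (m4) to 8145 CPM (m3) in warm Cre- and from 19.7 to 631 CPM in warm BATdKO mice. In the cold it ran from 4.22 to 1514 CPM in Cre- and from 2.93 to 153 CPM in BATdKO mice. The part of muscle in the differences of Klhl31 and Klhl41 was not tested.

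**Figure D4:**
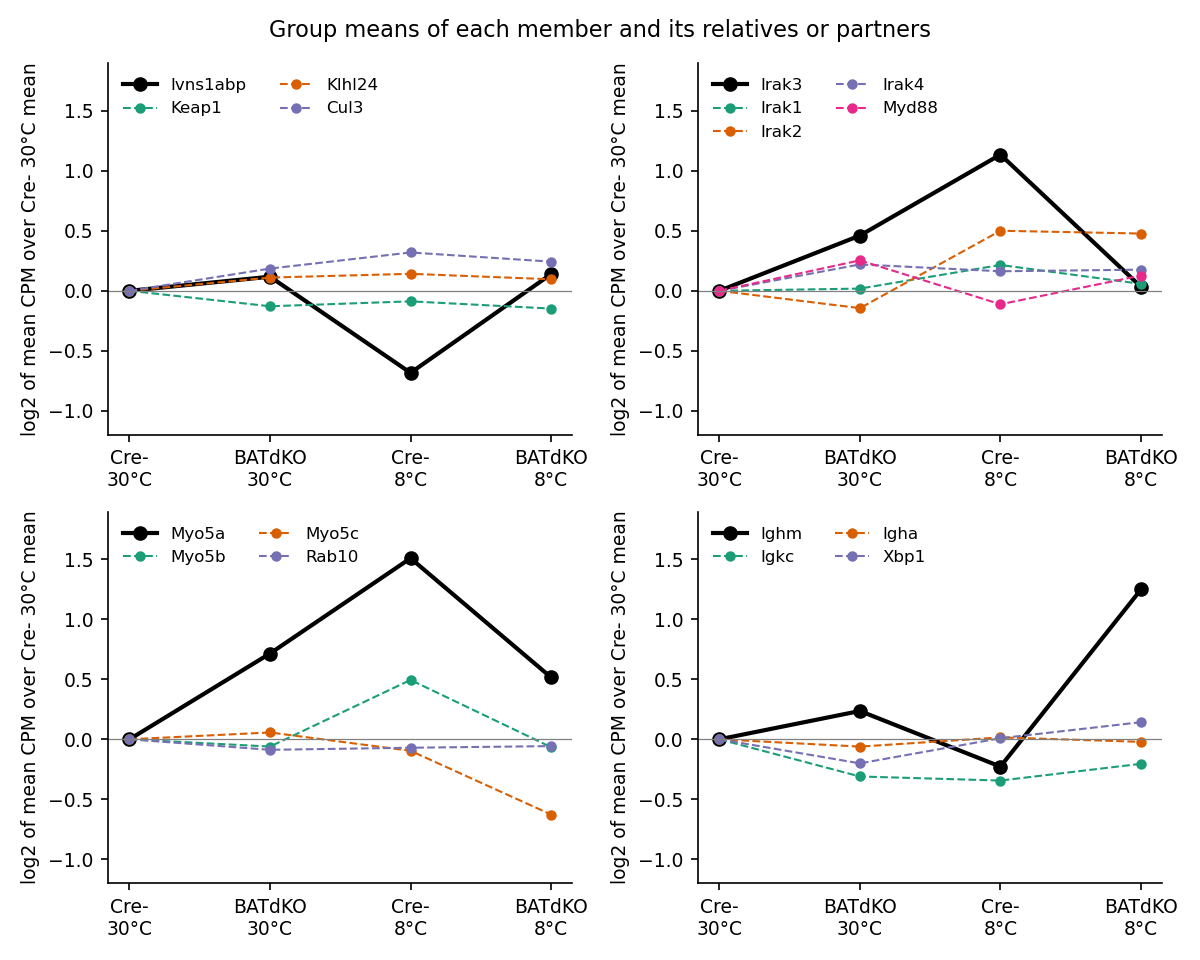
Group means of each gene (black) and of relatives or partners (colours), as log2 of the mean CPM over the mean of warm Cre- mice, where lines only join the points of a gene. Irak3 and Myo5a peak in cold Cre- mice, Ivns1abp dips there and Ighm peaks in cold BATdKO mice, while Irak4, Keap1, Rab10, Igha and Xbp1 stay near 0. Other relatives do move: Myo5b is highest in cold Cre- mice (10.9 CPM, warm Cre- 7.73 CPM). Irak2 is higher in cold Cre- and cold BATdKO mice (15.3 and 15.1 CPM, warm Cre- 10.8 CPM), and Myo5c is lowest in cold BATdKO mice (5.23 CPM, warm Cre- 8.08 CPM).

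No other gene of antibody production that was tested passed a contrast. Igkc, the constant region of the kappa light chain that pairs with heavy chains, ranged from 11.3 to 23.0 CPM (mean 15.9) in cold BATdKO mice and from 12.1 to 16.5 CPM (mean 14.4) in cold Cre- mice. In warm mice it ranged from 12.9 to 27.0 CPM in Cre- and from 11.1 to 17.9 CPM in BATdKO mice, so all 4 groups overlapped. Its interaction value was 0.45 (adjusted p = 0.634 from edgeR). Igha, the heavy chain of immunoglobulin A, had group means of 3.62 to 3.82 CPM. Of 19 listed genes of immunoglobulins and antibody secretion 5 were tested in edgeR (Igkc, Igha, Derl3, Sdc1 and Xbp1), and Jchain and Mzb1 were not. In all 7 contrasts none of the 5 passed in edgeR, nor did any of the 6 that DESeq2 tested, and an unadjusted p under 0.05 was reached by 1, for cold in Cre- mice in edgeR. The B cell marker list had 2 of 14 genes in the table, Bank1 and Cr2, and Ms4a1 and Cd79a were not analysed here. Their summed level was 3.57 to 5.67 CPM in cold BATdKO, 2.69 to 4.34 CPM in cold Cre-, 3.65 to 5.71 CPM in warm BATdKO and 3.45 to 8.20 CPM in warm Cre- mice, so it did not separate the group in which Ighm was high.

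Marker lists of other cell types were read beside Irak3 and Myo5a as well. Macrophage and monocyte markers, 13 of 14 in the table, summed to 197 to 299 CPM in cold Cre- and 232 to 268 CPM in cold BATdKO mice, and to 209 to 296 CPM in the warm groups, without a shift of the sum where Irak3 was high. Of the 13 only Cx3cr1 passed for cold in Cre- mice, being lower (adjusted p = 0.0189 from edgeR), or 7.69% beside 9.15% of all genes. For cold in BATdKO mice 2 of the 13 passed, Ccr2 and Cx3cr1, both lower, or 15.4% beside 7.07% of all genes. The same 2 passed as lower for the average temperature difference, beside 15.6% of all genes. For the Schwann cell list the sum did shift, though not each of its genes. Its 3 genes in the table of 6 summed to 35.7 to 62.5 CPM in cold Cre- mice and to 12.1 to 31.4 CPM in the other 3 groups, which is the group in which Irak3 and Myo5a were high. It was carried by S100b, also a gene of fat cells, with 36.3 ± 9.36 CPM (SD, n = 6) in cold Cre- mice and means of 8.89 to 10.8 CPM elsewhere. Mbp had its highest group mean, 8.32 CPM, there too but passed no contrast, and Sox10 was not analysed here. Over the 3 genes, of which Ncmap is the third, the cold difference in Cre- mice ran from -0.67 to 1.71 (log2, median 0.05). Of 5 melanocyte markers only 1 was in the table, at 4.33 to 7.84 CPM over all libraries. Endothelial markers, all 5 in the table, summed to 164 to 243 CPM in cold Cre- and 165 to 234 CPM in cold BATdKO mice, and to 131 to 183 CPM in the warm. Between mice of a group, that is with group means taken off, Myo5a moved with the endothelial sum (r = 0.71 over 24 libraries) and the brown adipocyte sum (0.61) and against the hepatocyte sum (-0.61). For Irak3 the values ran from -0.30 (hepatocyte) to 0.36 (endothelial) over the marker lists, Ivns1abp had 0.57 with the brown adipocyte sum, and Ighm had -0.52 with the hepatocyte sum. The points share libraries and composition, so these are descriptions. The brown adipocyte sum had means of 2963 and 2962 CPM in cold Cre- and cold BATdKO mice, and 1167 and 1526 CPM in the warm groups. The part of these cell types in the patterns of the 4 genes was not tested.

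The genes with the most similar pattern over the 24 libraries (Pearson r of log2 CPM, all libraries counted alike) were, for Ivns1abp, Svep1 (r = 0.90), Rgs2 (0.88) and Hspa12a (0.85). Svep1, an extracellular matrix protein, fell from 7.01 to 1.52 CPM with cold in Cre- mice, where it had 11.8 and 8.55 CPM in warm and cold BATdKO mice. Rgs2, a regulator of G protein signalling, had 121 and 35.9 CPM in warm and cold Cre- mice and 140 and 95.3 CPM in BATdKO mice, so unlike Ivns1abp its mean was lower in the cold in both genotypes. For Irak3 the closest were Ctnna1 (0.77), Fez2 (0.76) and Fam213a (0.75), and for Myo5a they were Ablim1 (0.88), Proca1 (0.87) and Pla2g7 (0.87). For Ighm they were Lrrn4 (0.92), Phf5a (0.91) and Dgat2 (0.89). Phf5a, a splicing factor subunit, had 79.7 CPM in cold BATdKO mice and 49.1 to 55.1 CPM elsewhere, and Dgat2 521 CPM against 270 to 298 CPM. These correlations share libraries and group structure and are descriptions. With each group's mean taken off, other genes came first for each: Gm11703, Zfp397 and Xrcc6 for Ivns1abp (0.78 to 0.79), Rnf40, Exoc3 and Cdc14a for Irak3 (0.68 to 0.69), Ddhd2, Akap7 and Gpd2 for Myo5a (0.83 to 0.84), and Ehbp1l1, Mrps21 and Lynx1 for Ighm (0.81 to 0.83).

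Among themselves, Irak3 and Myo5a had r = 0.72 over the 24 libraries and Ivns1abp and Irak3 r = -0.66. With group means taken off these were 0.28 and 0.08, and Ivns1abp with Myo5a went from -0.43 to 0.41. The similarity of Irak3 and Myo5a thus lay mostly between groups and not between mice of a group. All 4 genes were picked by the same contrast, so their likeness between groups follows in part from the choice.

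**Figure D5:**
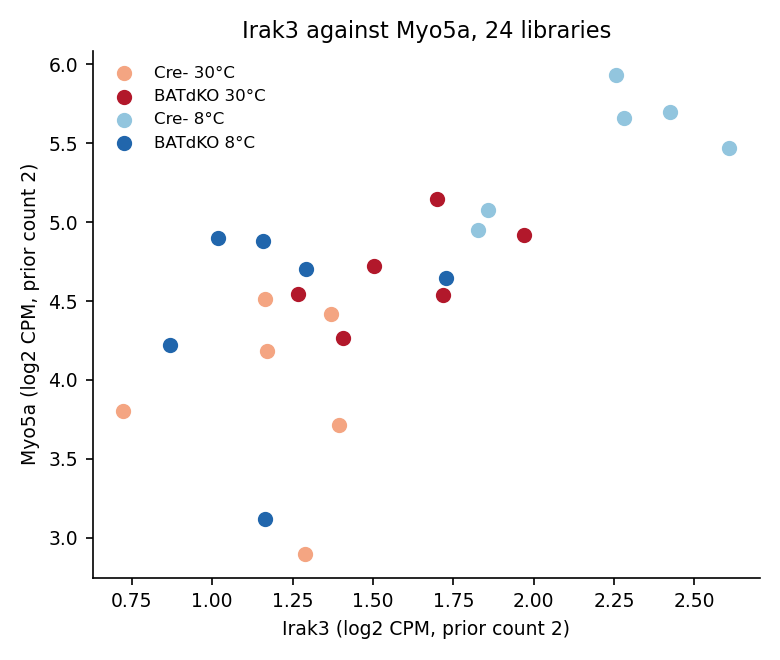
Irak3 against Myo5a in the 24 libraries, both as log2 CPM with a prior count of 2, coloured by group. Cold Cre- mice lie at the upper right and the points of the other 3 groups overlap, and r is 0.72 over all libraries and 0.28 with group means taken off.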

How the data were processed

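The authors sequenced QuantSeq 3′ tag libraries of BAT RNA, cleaned forward reads by BBDuk, mapped these by STAR 2.5.3a against GRCm38 and counted reads over genes by Rsubread. The raw, unnormalized counts were deposited. The submitters' processing notes also name DESeq2. The annotation release and the strand setting are not given in the sources used here. The study left out outliers that it does not name, and all 24 libraries were used here. Columns were matched to samples by the library name in the labels and groups came from labelled genotype and temperature. No pair of libraries of a group was alike within sampling noise (lowest chi-square per degree of freedom 2.48 over 60 pairs).

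Counts of 12608 genes were matched to a symbol through GENCODE vM21. The deposited counts were fitted by edgeR 4.0.16, with limma 3.58.1, under R 4.3.3: TMM library sizes, filterByExpr on the 4 groups (12485 genes kept), and a quasi-likelihood fit with a mean for each group over all 24 libraries. Contrasts were the interaction, the average genotype and temperature differences and the 4 single comparisons, with Benjamini-Hochberg adjustment over all tested genes and the study's threshold of 0.1. A standard error is the absolute log2 difference over the square root of F. CPM uses TMM library sizes, and log2 CPM a prior count of 2. Depth sets the precision: at the lowest total a value can rest on a single read. The steps were tested on simulated counts. Positions and overlaps are from GENCODE vM21.

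The genes and all gene lists were chosen with earlier results of these data known. Named are the 4 genes, both deleted genes, for each gene the 3 most alike over all libraries and with group means taken off, genes before a member in the interaction order and the 2 after the last, preset relatives and partners, up to 3 genes with the smallest p of each list in a contrast, and marker genes. Tab2, Peli2, Nfkbia, Chuk, the antibody genes Igha, Derl3, Sdc1 and Xbp1 and the antisense partners were added to the text after their values were seen. Alternatives were DESeq2 1.42.0, RLE size factors, leaving low counts unfiltered, requiring 10 normalized counts on average, robust dispersion, a fit of 2 groups, leaving out each library, and leaving out both m6 libraries at 30°C. List counts by DESeq2 and without both m6 libraries were added after the data had been seen. Some genes of the lists are not reported here by name.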

Additional observations from a re-analysis of the deposited data

Results flagged for a closer look

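Of 72 sets of 6 values checked (the 4 genes, both deleted genes and the marker sums in each group), 6 held a value far from the rest, and chance alone gives about 1 in 20 sets. None was a value of Ivns1abp, Irak3, Myo5a or Ighm. The library labelled Cre- 30°C m6 had 38.6 CPM of Tbl1xr1, where the next had 24.6 CPM. The library labelled BATdKO 30°C m6 had 39.7 CPM of Tbl1x, where the next had 53.4 CPM. In Cre- 30°C m3 the T cell marker sum, a single gene, was 9.46 CPM and the endothelial sum was 131.0 CPM, the highest and the lowest of that group. The melanocyte sum was 7.84 CPM in BATdKO 8°C m3, and the progenitor sum was 169.3 CPM in Cre- 8°C m2.

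The genotype difference differed between temperatures for the 4 genes by 0.72 (Ivns1abp), -1.45 (Irak3), -1.68 (Myo5a) and 1.32 (Ighm) on the log2 scale, which is the contrast that chose them.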

How the results depend on the processing

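Over the 30 alternatives the interaction values that chose the genes ran from 0.62 to 0.78 for Ivns1abp, -1.59 to -1.36 for Irak3, -1.84 to -1.51 for Myo5a and 1.20 to 1.42 for Ighm. Places in the interaction order ran from 1 to 10 for Ighm, 1 to 15 for Irak3, 3 to 12 for Ivns1abp and 6 to 25 for Myo5a. The average temperature call of Irak3 was lost in 18 of 30 (adjusted p up to 0.182 by edgeR), 15 of them single libraries left out (each but Cre- 30°C m4 and m5, BATdKO 30°C m1, m3 and m6, Cre- 8°C m2 and m3, and BATdKO 8°C m1 and m5), and no other average call of the 4 genes changed.

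The number of genes called in the interaction was 51 with DESeq2, 21 with robust dispersion and 44 without both m6 libraries at 30°C, and 7 to 37 with single libraries left out. There it was 35 without Cre- 30°C m1, 32 without m6 of that group, 21 without BATdKO 30°C m4, 37 without Cre- 8°C m2, and 7 without BATdKO 30°C m2, Cre- 8°C m5 or BATdKO 8°C m5. For average genotype it was 674 without both m6 libraries, and 248 to 556 with single libraries left out (556 without Cre- 30°C m6). For genotype at 8°C it was 477 with only those 2 groups fitted, and 138 (without BATdKO 8°C m5) to 276 with single libraries left out. For genotype at 30°C it was 90 with DESeq2 and 500 without both m6 libraries, and 0 to 369 with single libraries left out: 369 without Cre- 30°C m6, 67 without Cre- 30°C m2, 47 without BATdKO 30°C m4, 41 without BATdKO 30°C m6, and 1 to 3 without Cre- 30°C m4, Cre- 8°C m3 or BATdKO 8°C m6. For cold in BATdKO mice it was 574 (without BATdKO 8°C m4) to 1069, for cold in Cre- mice 791 to 1343, and for average temperature 1636 to 2135. The cause of these shifts was not tested. No paired analysis was possible because the labels give each mouse a number of its own and no number is shared between groups. Irak3, with 1 to 47 reads per library, is the gene for which depth limits precision most.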
